A study of Mus musculus with 12 samples.

Results

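The enzymes that hydroxylate and crosslink collagen were followed as 10 genes, chosen by name: the lysyl oxidases Lox, Loxl1, Loxl2, Loxl3 and Loxl4, the lysyl hydroxylases Plod1, Plod2 and Plod3, and the prolyl 4-hydroxylase alpha subunits P4ha2 and P4ha3. Each has 1 probe set, so they make up 10 of the 17306 probe sets tested, and all 10 gave signal above background in every group. RNA was profiled on 12 arrays of C166 cells, a mouse line derived from embryonic yolk sac and labelled as endothelial. Cells were transduced at 20% confluency and an MOI (vector particles per cell) of 10 with a lentiviral vector, received fresh medium after 72 hours and were harvested on day 7, when over 99% expressed GFP. The VEGF-down and VEGF-up groups (4 arrays each) carried GFP plus 1 of 2 shRNAs complementary to the Vegfa promoter, named for the intended effect on VEGF-A. The GFP group (4 arrays) carried the vector with GFP and no shRNA is named for it, so all groups share transduction and GFP. All arrays come from 1 cell line, and the labels do not say whether the arrays of a group are separate cultures, so the p-values cover nothing but array-to-array spread within these samples, which may be technical.

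Collagen is modified before it is secreted. In the endoplasmic reticulum, prolyl 4-hydroxylases (tetramers of catalytic alpha subunits with the beta subunit P4hb) make the hydroxyproline that keeps the triple helix stable at body temperature, and lysyl hydroxylases make the hydroxylysine that carries sugars and shapes later crosslinks. Both need iron, oxygen, 2-oxoglutarate and ascorbate. Outside the cell, the copper-dependent lysyl oxidases turn lysine and hydroxylysine of collagen and elastin into aldehydes, which condense into covalent crosslinks and stiffen the matrix. In several cell types hypoxia-inducible factor (HIF) is known to raise Lox, Plod2, P4ha1 and P4ha2.

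Among 12 endothelial markers, 3 (Kdr, Egfl7 and Flt1) were above background in each group, while Pecam1, Cdh5, Tek, Tie1, Eng, Erg, Vwf, Cldn5 and Emcn were at background, so the labelled cell type lacked most of its defining markers here. All 10 fibroblast and mural markers were above background. Their summed intensity was 20687 to 21556 in VEGF-down arrays, 22845 to 23975 in VEGF-up arrays and 26632 to 27505 in GFP arrays. In VEGF-down cells 8 of the 10 fell, beside 16.4% of all probe sets, with Postn (-3.13) and Lum (-2.99) the largest falls. All 4 mesothelial markers were above background as well, with sums of 8182 to 8376 in VEGF-down, 5859 to 6205 in VEGF-up and 6111 to 6731 in GFP arrays. They did not move one way in VEGF-down cells: Msln (2.63), Upk3b (0.41) and Wt1 (0.18) rose and Lrrn4 fell (-0.55). The endothelial sum was 424 to 450 in VEGF-down, 169 to 230 in VEGF-up and 158 to 165 in GFP arrays, and that of 5 blood cell markers (3 above background) was 785 to 838, 463 to 522 and 830 to 1024 in the same groups. The blood cell sum is mostly Cd14 (means of 9.42, 8.54 and 9.58 log2 in that order), with Ptprc and Adgre1 at background in every group. The higher endothelial sum in VEGF-down cells rests on Kdr, which rose by 3.33 (adjusted p = 6.33e-10). In GFP arrays Kdr lay at 4.96 with an SD of 0.0019, as small as that of Erg at background (0.0027). Whether Kdr RNA was present in GFP cells was not tested. None of the other 11 endothelial markers passed in VEGF-down cells, and Egfl7 differed by -0.14. These shifts move with the results below, and their part in them was not tested. Fewer cells of a type and less RNA per cell cannot be told apart in these bulk samples. Vegfa, the check of the labels, lay at 6.46, 6.61, 6.54 and 6.55 (log2 intensity) in VEGF-down arrays, at 7.35, 7.66, 7.68 and 7.48 in VEGF-up arrays, and at 7.15, 7.37, 7.13 and 7.15 in GFP arrays. It fell in VEGF-down cells (-0.66 log2) and rose in VEGF-up cells (0.34 log2), where its arrays overlap those of GFP.

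In VEGF-down cells, Loxl2, Plod1, Loxl4, P4ha2 and Lox fell and Plod2 rose against GFP, while Loxl1, Loxl3, Plod3 and P4ha3 did not pass. Lox alone of the 10 passed in VEGF-up cells, where it fell. Loxl2 had the largest difference of the 10 in VEGF-down cells, where its intensity was 3.33-fold lower. The count of 6 of 10 called in VEGF-down cells stands beside 31.0% of all probe sets and 45.0% of those above background, and the 1 of 10 called in VEGF-up cells beside 13.2% and 20.8%. With median centring 8 of 10 were called in VEGF-down cells (2 rises and 6 falls, P4ha3 and Plod3 being added). By direction and as deposited, 5 falls and 1 rise of 10 in VEGF-down cells stand beside 16.4% and 14.6% of all probe sets. In VEGF-up cells 1 fall and 0 rises stand beside 6.51% and 6.73%. At an unadjusted p under 0.05 in limma, 2 of the 10 (Loxl2 and P4ha2) were higher in VEGF-up cells. The median difference of the 10 genes was -0.19 for VEGF-down and -0.0036 for VEGF-up, beside -0.01 for all probe sets in each comparison. The comparisons with GFP share the GFP arrays, so a high or low GFP array moves both.

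**Figure D1:**
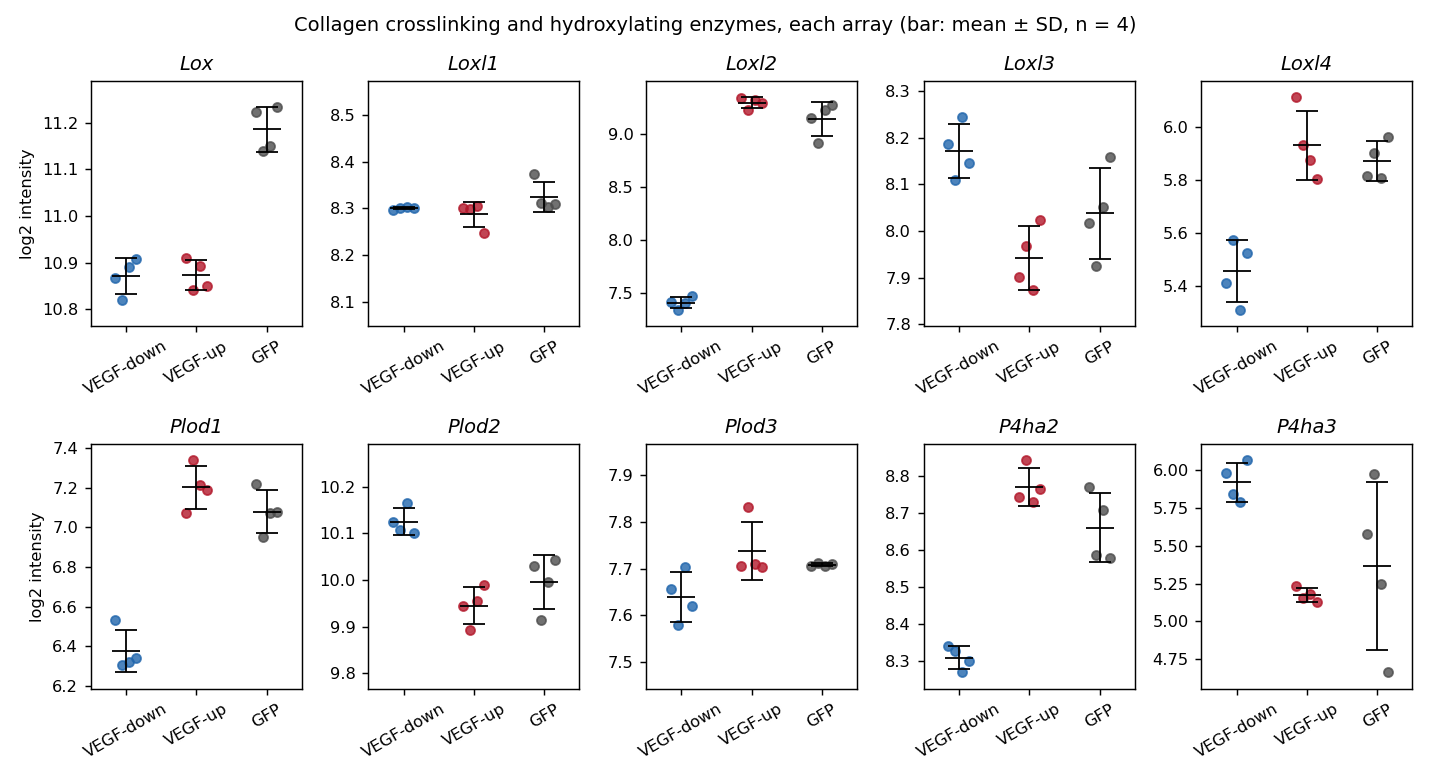
Log2 intensity (vertical axis, scaled per gene) of the 10 enzymes on each array of the VEGF-down, VEGF-up and GFP groups, with points for arrays and bars for the mean ± SD (n = 4). Loxl2 and Plod1 are low in all 4 VEGF-down arrays and at like levels in the other groups, whereas Lox is low in both shRNA groups; the P4ha3 GFP arrays spread from 4.66 to 5.97.

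Loxl2 encodes a lysyl oxidase with scavenger receptor domains, known for crosslinking type IV collagen of basement membranes, and in endothelial cells for a part in capillary formation. Its log2 intensity was 7.42, 7.35, 7.40 and 7.47 in VEGF-down arrays, 9.34, 9.23, 9.32 and 9.30 in VEGF-up arrays, and 9.15, 8.92, 9.23 and 9.28 in GFP arrays. All VEGF-down arrays lay below every other array, and the VEGF-up and GFP arrays overlapped. The difference from GFP was -1.73 ± 0.067 (SE of the fit) in VEGF-down cells, with an adjusted p of 8.79e-09. Only 0.451% of all probe sets had a larger absolute difference in that comparison. In VEGF-up cells it was 0.15 higher than in GFP cells (adjusted p = 0.170), with a 95% interval of 0.0046 to 0.30. The authors' deposited table for VEGF-down also lists Loxl2, with a fold change of -3.38 and a q-value of 0.004018.

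Lox is the founding lysyl oxidase, which acts on fibrillar collagen and elastin. Its log2 intensity was 10.87, 10.82, 10.89 and 10.91 in VEGF-down arrays, 10.91, 10.84, 10.89 and 10.85 in VEGF-up arrays, and 11.22, 11.14, 11.15 and 11.23 in GFP arrays. Every array with an shRNA lay below every GFP array, and the shRNA groups overlapped each other. Lox fell by 0.32 (adjusted p = 7.06e-06) in VEGF-down cells, a 1.24-fold lower intensity, and by 0.31 (adjusted p = 3.67e-05) in VEGF-up cells, also 1.24-fold lower. VEGF-up minus VEGF-down was 0.00, with a 95% interval of -0.06 to 0.07. The authors' deposited table for VEGF-up lists Lox with a fold change of -1.24 and a p-value of 0.000446. Since both differences use the same GFP arrays, they are not independent measurements of a shared fall.

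Loxl4, another member with scavenger receptor domains, was dimmer, at 5.41, 5.57, 5.31 and 5.52 in VEGF-down arrays, 6.11, 5.93, 5.87 and 5.80 in VEGF-up arrays, and 5.81, 5.90, 5.81 and 5.96 in GFP arrays (log2 intensity). The VEGF-down arrays lay below all others. It fell by 0.42 ± 0.074 in VEGF-down cells (adjusted p = 0.00117), and the VEGF-up difference was 0.06 (adjusted p = 0.579; 95% interval -0.11 to 0.22). Loxl3, the remaining member of that subgroup, needed in mice for palate and spine development, ran the other way in its values: 8.19, 8.11, 8.24 and 8.15 in VEGF-down arrays, 7.90, 7.97, 7.87 and 8.02 in VEGF-up arrays, and 8.02, 7.92, 8.05 and 8.16 in GFP arrays. GFP overlapped both shRNA groups, and neither difference from GFP passed (0.13, adjusted p = 0.0704, in VEGF-down; -0.10, adjusted p = 0.222, in VEGF-up). Without GFP replicate 4 the VEGF-down difference of Loxl3 was 0.17 (adjusted p = 0.0167). Loxl1, which is needed for elastic fibre upkeep in mice, stayed within 8.25 to 8.37 over all 12 arrays, with differences from GFP of -0.02 (95% interval -0.07 to 0.02) in VEGF-down and -0.04 (-0.08 to 0.01) in VEGF-up cells. Its SD in VEGF-down arrays, 0.0030, was as small as that of the marker Erg at background (0.0031). Whether this probe set follows the amount of Loxl1 RNA was not tested.

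Plod1 encodes lysyl hydroxylase 1, which acts on lysines of the collagen triple helix. Its log2 intensity was 6.53, 6.30, 6.32 and 6.34 in VEGF-down arrays, 7.07, 7.34, 7.21 and 7.19 in VEGF-up arrays, and 7.22, 6.95, 7.07 and 7.08 in GFP arrays. The VEGF-down arrays were the lowest, with replicate 1 above the other 3. Plod1 fell by 0.71 ± 0.072 in VEGF-down cells, 1.63-fold lower (adjusted p = 1.80e-05), and its VEGF-up difference was 0.12 (adjusted p = 0.247; 95% interval -0.04 to 0.28). The authors' deposited table for VEGF-down lists it with a fold change of -1.67 and a q-value of 0.004092. Plod2 encodes lysyl hydroxylase 2, which acts on the telopeptides at the chain ends and so favours stable crosslinks. Its log2 intensity was 10.12, 10.11, 10.17 and 10.10 in VEGF-down arrays, 9.94, 9.89, 9.95 and 9.99 in VEGF-up arrays, and 10.03, 9.91, 10.00 and 10.04 in GFP arrays. The VEGF-down arrays were the highest, and Plod2 rose by 0.13 ± 0.030 there, 1.09-fold (adjusted p = 0.00762). That direction depends on scaling: relative to the spike-in RNAs Plod2 was 0.12 lower in VEGF-down cells (-0.12, adjusted p = 0.0915). In VEGF-up cells its difference from GFP was -0.05 (adjusted p = 0.257).

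Plod3 encodes lysyl hydroxylase 3, which also adds sugars to hydroxylysine. Its log2 intensity was 7.66, 7.58, 7.70 and 7.62 in VEGF-down arrays, 7.71, 7.83, 7.71 and 7.70 in VEGF-up arrays and 7.71 in each GFP array. The GFP arrays were nearly equal (SD 0.0028). The VEGF-down arrays lay just below them without overlap (highest 7.704 against lowest 7.706), but the difference of -0.07 did not pass (adjusted p = 0.127). It did pass relative to the spike-in RNAs (-0.32) and with arrays centred on their medians (-0.09).

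P4ha2 and P4ha3 encode alternative catalytic subunits of collagen prolyl 4-hydroxylase. P4ha2 lay at 8.34, 8.33, 8.27 and 8.30 in VEGF-down arrays, 8.74, 8.84, 8.73 and 8.77 in VEGF-up arrays, and 8.77, 8.59, 8.71 and 8.58 in GFP arrays. The VEGF-down arrays were the lowest, and it fell there by 0.35 ± 0.043, 1.28-fold lower (adjusted p = 8.18e-05). Its VEGF-up difference of 0.11 did not pass (adjusted p = 0.138), but without GFP replicate 1 it was 0.15 (adjusted p = 0.0360), which would make 2 of 10 genes called. P4ha3 lay at 5.98, 5.84, 5.79 and 6.06 in VEGF-down arrays, 5.24, 5.16, 5.18 and 5.13 in VEGF-up arrays, and 5.58, 5.97, 5.25 and 4.66 in GFP arrays. The GFP arrays spread over 1.31 log2 units and cover all VEGF-up values and 2 of the 4 VEGF-down values. The VEGF-down difference of 0.55 ± 0.22 had an adjusted p of 0.0748, which without GFP replicate 2 was 0.00860 (difference 0.75) and with median centring 0.0463 (difference 0.53). The other enzyme subunits, named after their values were seen, were P4ha1, which fell by 0.19 in VEGF-down cells (adjusted p = 0.00541), and the shared beta subunit P4hb, which fell by 0.25 (adjusted p = 0.000134). In VEGF-up cells P4ha1 differed from GFP by -0.13 (adjusted p = 0.0792; -0.17 and 0.00798 without GFP replicate 2) and P4hb by -0.05 (adjusted p = 0.324).

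**Figure D2:**
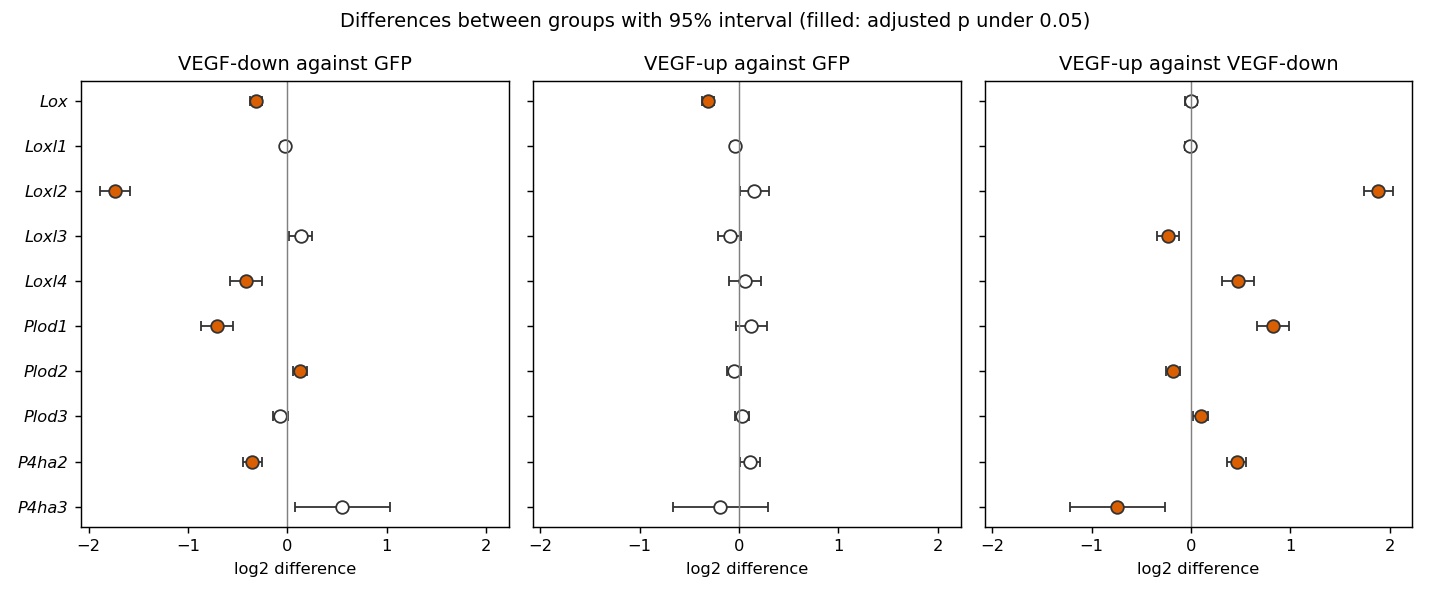
Log2 differences (horizontal axis) of the 10 enzymes for VEGF-down and VEGF-up, each against GFP, and for VEGF-up against VEGF-down, with 95% intervals of the fit over 12 arrays; filled points passed an adjusted p of 0.05. The first panel has 6 filled points, the second 1 (Lox) and the third 8.

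Promoter sequence was in the RefSeq-derived table for 5 of the 10 genes (Loxl4, Plod1, Plod3, P4ha2 and P4ha3). The windows of the 3 that fell in VEGF-down cells are printed, 5′ to 3′ on the gene's strand, from 250 bases before to 50 after the annotated start, from RefSeq with build GRCm38.p6. They are Loxl4 (chr19:42612757-42613056, minus strand), Plod1 (chr4:147936727-147937026, minus strand) and P4ha2 (chr11:54100674-54100973, plus strand). Capitals mark the core of the HIF response element on either strand, in its form ACGTG (read CACGT on the opposite strand) or its form GCGTG (read CACGC there).
Loxl4: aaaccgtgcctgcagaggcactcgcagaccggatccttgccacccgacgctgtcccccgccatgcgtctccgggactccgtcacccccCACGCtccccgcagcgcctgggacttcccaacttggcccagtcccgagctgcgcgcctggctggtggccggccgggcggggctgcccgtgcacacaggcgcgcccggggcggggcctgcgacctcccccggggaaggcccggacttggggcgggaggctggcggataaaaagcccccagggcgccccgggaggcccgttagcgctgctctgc
Plod1: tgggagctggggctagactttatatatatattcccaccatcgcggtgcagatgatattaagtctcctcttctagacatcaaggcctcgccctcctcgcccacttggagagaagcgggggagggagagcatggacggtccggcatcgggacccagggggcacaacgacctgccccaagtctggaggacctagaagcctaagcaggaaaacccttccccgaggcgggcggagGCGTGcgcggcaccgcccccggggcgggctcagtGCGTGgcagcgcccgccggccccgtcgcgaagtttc
P4ha2: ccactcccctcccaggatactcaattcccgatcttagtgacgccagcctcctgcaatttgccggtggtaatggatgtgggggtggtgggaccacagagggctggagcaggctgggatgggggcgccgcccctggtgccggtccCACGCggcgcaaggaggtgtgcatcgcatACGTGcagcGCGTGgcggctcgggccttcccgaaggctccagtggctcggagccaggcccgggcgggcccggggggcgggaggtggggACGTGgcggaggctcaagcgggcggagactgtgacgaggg
Plod1 held 2 matches (both GCGTG), P4ha2 held 4 (2 of each) and Loxl4 held 1 (GCGTG). Plod3, which did not pass in VEGF-down cells, also held 4 (1 ACGTG and 3 GCGTG), and P4ha3 held 0. Of all 32851 promoter windows in the table, 43.8% held at least 1 of these cores. In all, 8 motifs were counted on both strands, and these cores were picked for display after the counts were seen. The GC box GGGCGG had 3 matches in Loxl4, 3 in Plod1, 4 in P4ha2, 5 in P4ha3 and 0 in Plod3, and was present in 35.7% of all windows. TATAAA matched once in Plod1 (13.6% of all windows) and CCAAT once in Plod3 (37.4%). The E-box CACGTG, which holds the core ACGTG, had 0 matches in the 5 windows and was in 7.15% of all windows. The cyclic AMP response core TGACGT had 0 matches (7.51% of all windows), and so had the AP-1 motif TGANTCA (7.81%). GC content was 75.0% in Loxl4, 64.3% in Plod1 and 70.3% in P4ha2, against a median of 52.7% over all windows.

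Between the shRNA groups, 8 of the 10 enzymes differed, beside 30.6% of all probe sets and 48.1% of those above background. In VEGF-up against VEGF-down cells, Loxl2 rose by 1.89 (adjusted p = 3.58e-09), Plod1 by 0.83 (4.30e-06), Loxl4 by 0.47 (0.000410), P4ha2 by 0.46 (8.23e-06) and Plod3 by 0.10 (0.0464), where 15.1% of all probe sets rose and 15.5% fell. P4ha3 fell by 0.74 (adjusted p = 0.0219), Loxl3 by 0.23 (0.00474) and Plod2 by 0.18 (0.000762). Loxl1 (-0.01, adjusted p = 0.810) and Lox did not pass. Loxl2 was 3.70-fold higher in VEGF-up cells, while the fold sizes of the other called genes lay between 1.07 and 1.78. Arrays did not overlap for 7 of the 10 genes, where 32.8% of all probe sets had no overlap. In VEGF-down against GFP 7 of 10 likewise had none (37.1% of all probe sets), and in VEGF-up against GFP 1 of 10 (18.0%). The Plod3 call held in only 1 of 12 fits that left out an array (without VEGF-down replicate 3), with adjusted p of 0.0507 to 0.134 in the others. The P4ha3 call was lost without VEGF-down replicate 1 or 4 or VEGF-up replicate 2 or 4 (adjusted p 0.0504 to 0.0594).

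The other genes of the pathway come from lists that were chosen with earlier results known. Their counts stand beside shares over all probe sets. Those were 14.6% rises and 16.4% falls in VEGF-down cells and 6.73% and 6.51% in VEGF-up cells, each against GFP. Between the shRNA groups 15.1% rose and 15.5% fell. Of the probe sets above background, 45.0%, 20.8% and 48.1% were called in these comparisons. Of 19 measured genes for modifying and folding collagen, 2 rose and 11 fell in VEGF-down cells, with a median difference of -0.14. Creb3l1, a membrane-bound transcription factor for secretory and collagen genes, fell by 1.22 (adjusted p = 3.76e-07). P3h1, prolyl 3-hydroxylase 1, fell by 0.72 (1.15e-05), and Colgalt1, which adds galactose to hydroxylysine, fell by 0.44 (9.42e-07). P3h4, a partner of lysyl hydroxylase 1, rose by 0.48 (1.74e-06). In VEGF-up cells 3 of the 19 rose and 1 fell, and P3h1 was among the rises (0.31, adjusted p = 0.0120) with Serpinh1, the collagen chaperone HSP47 (0.16, adjusted p = 0.00279), and Sec23a, a coat protein of secretory vesicles (0.29, 0.000418). Fkbp7, a prolyl isomerase of the endoplasmic reticulum, fell by 0.20 (0.00349). Scaled to the spike-in RNAs, none of these 3 rises passed in VEGF-up cells and 3 genes fell. Under that scaling 254 of all 17306 probe sets rose there and 2535 fell. Without GFP replicate 2 the falls in the list also numbered 3. Between the shRNA groups 9 rose and 3 fell in VEGF-up cells, with Creb3l1 1.38 and P3h1 1.04 higher.

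Of 16 fibrillar and basement membrane collagen chains, substrates of these enzymes, 11 passed as falls in VEGF-down cells and 5 did not pass. The median over the 16 was -0.25, and 16.4% of all probe sets fell. The basement membrane chains Col4a1 (-1.10, adjusted p = 1.59e-08) and Col4a2 (-1.01, 1.96e-08) had the largest falls, followed by the fibrillar chain Col11a1 (-0.87, 1.67e-06) and Col6a3 of the microfibrillar type (-0.85, 5.97e-05). In VEGF-up cells 2 chains rose and 7 fell. Col6a3 (-0.66, adjusted p = 0.00127), Col4a2 (-0.42, 7.76e-05) and Col4a1 (-0.37, 0.000329) fell there, and Col11a1 rose by 0.47 (0.000647). In VEGF-up against VEGF-down cells 8 chains rose. Col1a1 is also 1 of the fibroblast and mural markers.

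VEGF-down cells had 1 rise and 5 falls among 11 elastic fibre genes. The microfibril genes Mfap2 (-1.01, adjusted p = 0.000206) and Fbn2 (-0.75, 6.45e-06) fell with the TGF-beta binding gene Ltbp4 (-0.61, 0.000204), whereas Mfap5 rose by 0.88 (0.000502). In VEGF-up cells 2 rose and 5 fell. Ltbp2 (-0.84, adjusted p = 7.08e-06), Mfap2 (-0.50, 0.0398) and Fbln1 (-0.36, 0.000335) fell there, and Fbn2 rose by 0.58 (0.000194). The Mfap2 fall in VEGF-up cells did not pass without GFP replicate 1, 2 or 4 or without any 1 VEGF-up array (adjusted p 0.0506 to 0.0876), nor with the replicate number as a block (0.0965) or quantile normalization (0.0508), and without VEGF-up replicate 1, 2 or 3 only 3 genes fell. Between the shRNA groups 4 rose and 4 fell, with 2 rises without VEGF-down replicate 2.

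Genes for propeptide removal and other crosslinks, 12 in all, had 3 rises and 3 falls in VEGF-down cells. The falls numbered 1 without GFP replicate 2 or VEGF-down replicate 1 or 4, and 7 with spike-in scaling. Under that scaling 13782 of all 17306 probe sets fell. Pxdn, peroxidasin, which forms sulfilimine crosslinks in type IV collagen, fell by 0.60 (adjusted p = 4.11e-08). Pcolce, an enhancer of procollagen C-proteinase, rose by 0.46 (1.53e-06). The transglutaminase Tgm2 rose by 0.20 (adjusted p = 0.00132) and the proprotein convertase Furin by 0.20 (0.0166), although against the spike-in RNAs their differences were -0.047 and -0.048. In VEGF-up cells 0 of the 12 passed in limma, with 3 at an unadjusted p under 0.05 and 0 to 3 across the other settings.

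Of 9 genes for copper and ascorbate supply, which the oxidases and hydroxylases need as cofactors, 4 rose and 1 fell in VEGF-down cells. Slc31a1, the main copper importer CTR1, fell by 0.33 (adjusted p = 5.66e-06), and its relative Slc31a2 rose by 0.35 (8.25e-07). The copper chaperones Ccs (0.20, adjusted p = 0.0144) and Atox1 (0.17, adjusted p = 0.0416) rose as deposited. Against the spike-in RNAs their differences were -0.048 and -0.075. The list's median, 0.14 as deposited, was -0.11 with that scaling, with 0 rises and 4 falls. These counts stand beside 863 rises and 13782 falls among all 17306 probe sets under the same scaling. Without VEGF-down replicate 4 only 2 of the 9 rose, and the Atox1 call was lost in 8 of 12 fits that left out an array (adjusted p 0.0548 to 0.111). In VEGF-up cells 0 of the 9 passed in limma, with 1 at an unadjusted p under 0.05 and 0 or 1 across the other settings.

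HIF and the oxygen-sensing hydroxylases that share cofactors with the collagen hydroxylases make a list of 8, of which 1 rose and 3 fell in VEGF-down cells. Egln3, a HIF prolyl hydroxylase and itself a HIF target, fell by 1.57 (adjusted p = 3.12e-08), Epas1 (HIF-2 alpha) by 0.58 (1.57e-05) and Hif1a by 0.35 (0.00193), whereas the partner subunit Arnt rose by 0.57 (7.05e-07). In VEGF-up cells Egln3 (-0.30, adjusted p = 0.0179) and Epas1 (-0.25, 0.0172) fell, but neither passed without GFP replicate 3 (adjusted p = 0.0532 and 0.0519). Among 12 HIF targets, 3 rises and 6 falls passed in VEGF-down cells. The falls include Vegfa, whose promoter the shRNAs were directed at, and Egln3, already counted in the list of 8. Other falls were those of the glycolytic Aldoc (-1.71, adjusted p = 1.18e-07) and the endoplasmic reticulum oxidase Ero1a (-1.43, 7.49e-09). Pfkfb3 (0.58, adjusted p = 0.000949), Ndrg1 (0.45, 1.53e-06) and Pfkfb4 (0.29, 0.00672) rose. In VEGF-up cells 2 rose and 4 fell, with Aldoc (-1.36, 4.70e-06), Pdk1 (-0.79, 3.67e-05) and Ndrg1 (-0.37, 3.68e-05) lower and Ero1a higher (0.42, 0.000408). Vegfa and Egln3 were the remaining rise and fall.

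**Figure D3:**
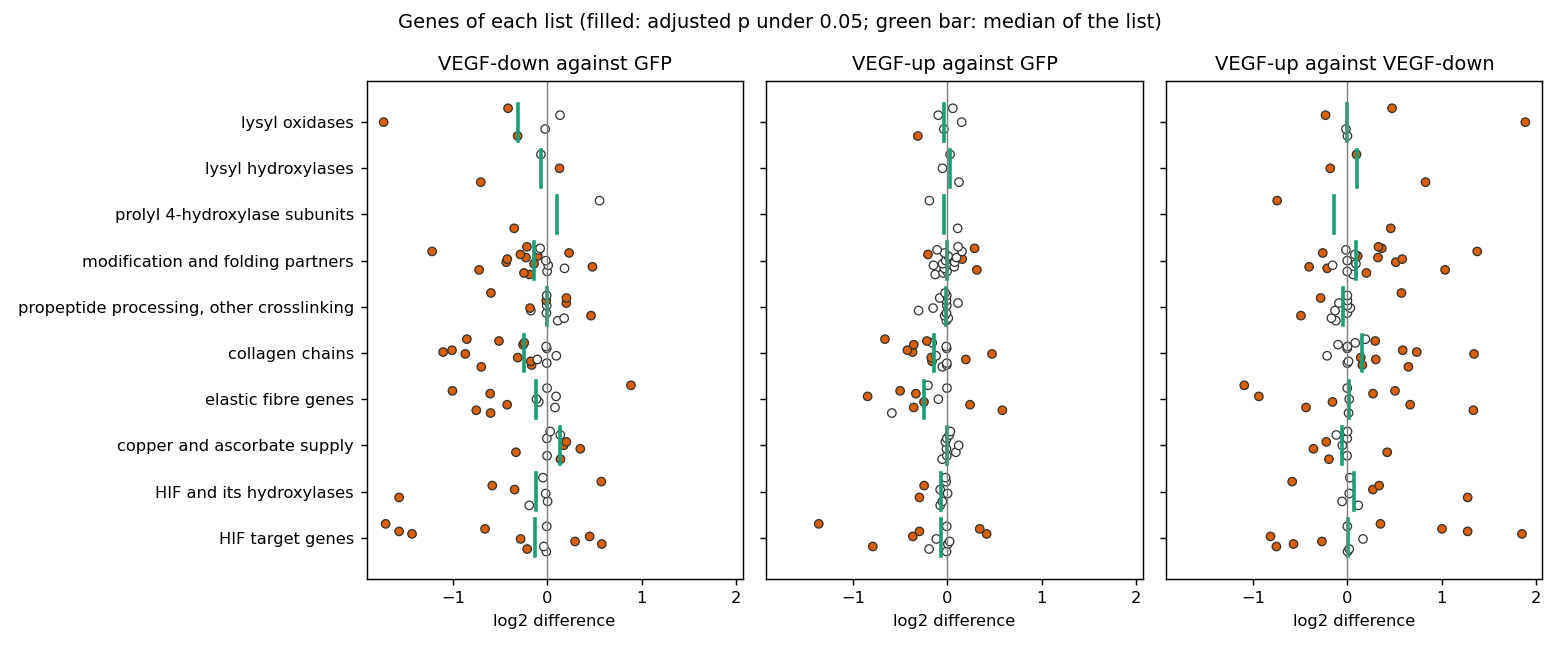
Log2 differences (horizontal axis) of each gene in the lists, by list, for each shRNA group against GFP (left and middle) and for VEGF-up against VEGF-down (right); filled points passed an adjusted p of 0.05 and the green bar is the list median. In VEGF-down cells 11 of 16 collagen chains and 11 of 19 modification and folding partners are filled to the left of 0. Of all probe sets, 16.4% fell there.

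Among 10421 named probe sets above background, the profile over the 12 arrays nearest to that of Loxl2 was that of Nfe2l1, a transcription factor. Its root mean square distance from Loxl2, each gene centred on its own mean, was 0.112 log2 units, beside a spread of 0.860 for Loxl2 itself. Nfe2l1 differed from GFP by -1.73 in VEGF-down and 0.30 in VEGF-up cells. Next came Atp6v1e1 (0.124), E2f6 (0.137), Bambi (0.146) and Nrep (0.152). Nearest to Lox was Ramp1, a receptor-activity modifying protein, at 0.0415 beside a spread of 0.152 for Lox, followed by Uvrag (0.0498), Gjc1 (0.0538), Stard4 and Lpgat1. These genes were chosen by likeness, so the values describe them and are not tests.

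**Figure D4:**
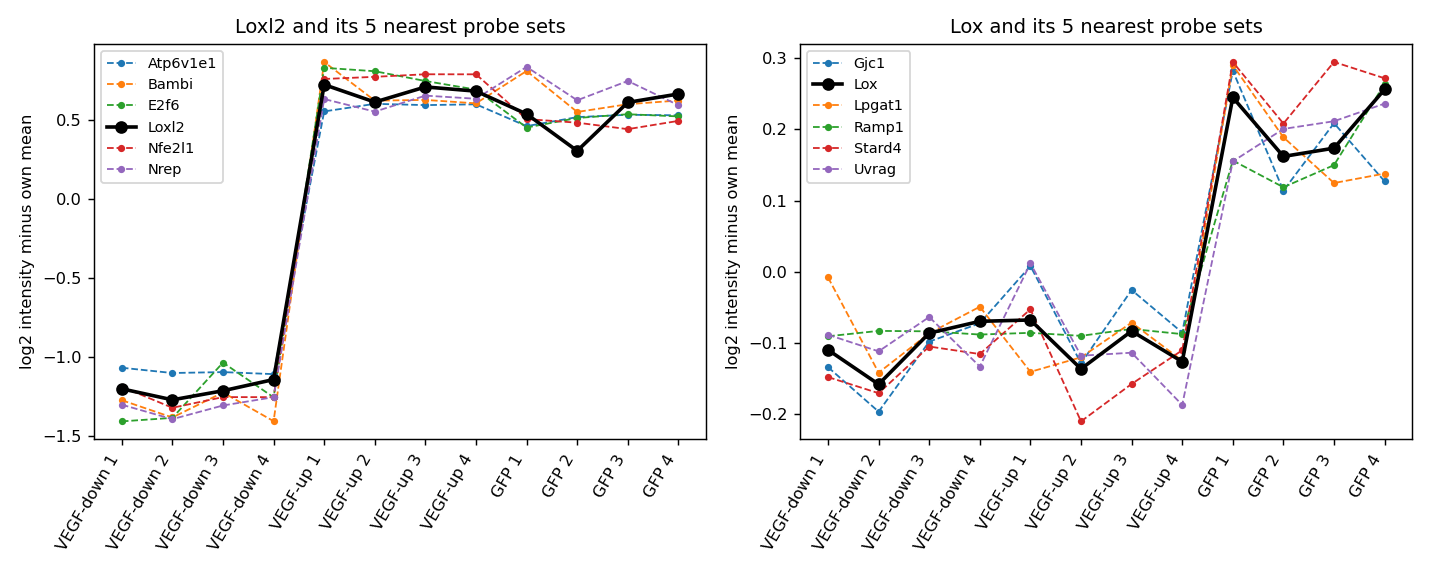
Log2 intensity minus each gene's own mean (vertical axis) on the 12 arrays, for Loxl2 and its 5 nearest probe sets and for Lox and its 5 nearest. Loxl2 and its neighbours are low in the 4 VEGF-down arrays, and Lox and its neighbours are high in the 4 GFP arrays.

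Scaling bears on small differences. The mean of 24 spike-in RNA probe sets was 0.25 log2 units higher in VEGF-down and 0.13 higher in VEGF-up arrays than in GFP arrays. Scaling to them moved the median of all probe sets to -0.26 in VEGF-down and -0.14 in VEGF-up cells, and the median of the 10 enzymes to -0.44 and -0.13. With spike-in scaling Loxl2, Plod1, Loxl4, P4ha2 and Lox still passed as falls in VEGF-down cells, and so did Loxl1 (-0.27) and Plod3 (-0.32), close to the shift itself. Lox still passed in VEGF-up cells, with Loxl3 (-0.23, adjusted p = 0.0364). The calls as deposited were 47.1% rises in VEGF-down cells, 23.8% after median centring and 5.89% relative to the spike-ins. They were 50.9% rises in VEGF-up cells against 9.11% with spike-in scaling, and 49.3% in VEGF-up against VEGF-down cells, against 78.3% (median centring) and 71.5% (spike-in).

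**Figure D5:**
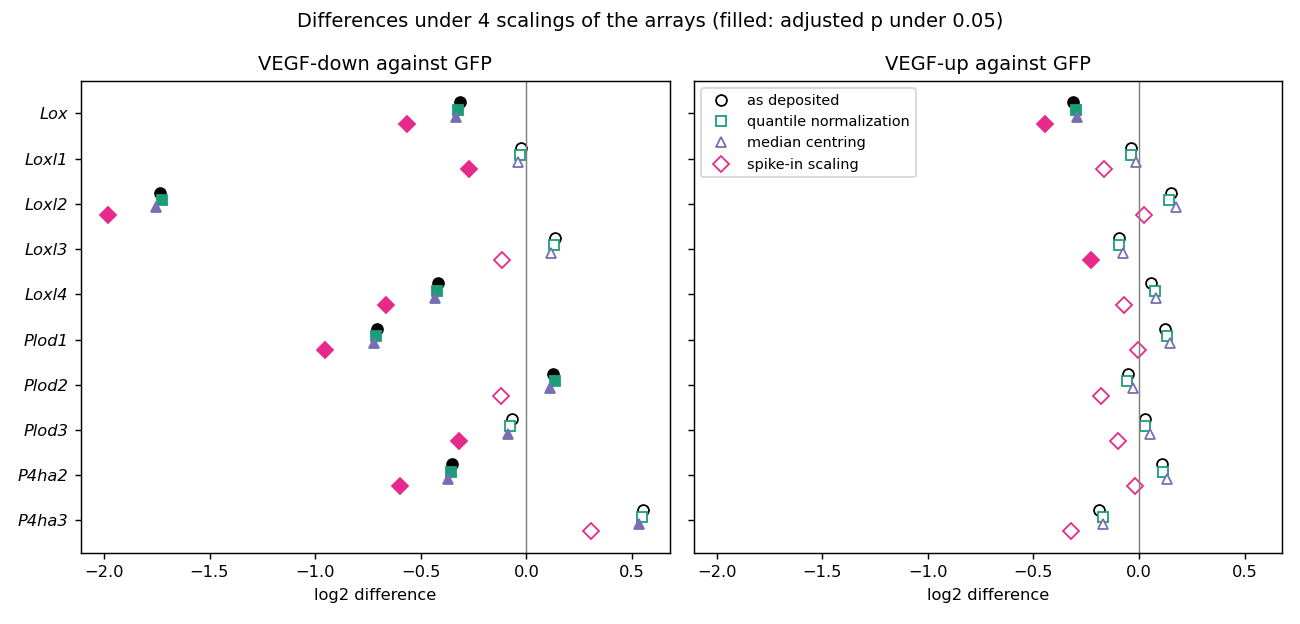
Log2 differences (horizontal axis) of the 10 enzymes in VEGF-down against GFP and VEGF-up against GFP under the scaling as deposited and 3 others; filled symbols passed an adjusted p of 0.05. Spike-in scaling moves every gene to the left and takes several small differences across 0, among them those of Plod2 and Loxl3 in VEGF-down cells.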

How the data were processed

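Biotin-labelled RNA was profiled on 12 arrays. The authors deposited a linear array intensity per probe set and sample, for which the submitters' processing notes name GCRMA; its version is not given in the sources used here. The values run from 3.04 to 17470.06, hence a linear scale. Per the file headers, the authors' tables of changed genes give a signed fold change (score) with a p-value and q-value, by a test the headers do not describe; they list genes down to fold sizes of 1.41 (VEGF-down) and 1.22 (VEGF-up), so absence from them is not comparable. The deposited intensities were taken to log2 here without an offset. Of 17370 probe sets, 64 controls were left out and 17306 tested (842 without a gene symbol, counted but not named). The platform table gave the gene symbols, updated through RefSeq by Entrez number.

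Group means were estimated in 1 fit over the 12 arrays with limma 3.58.1 in R 4.3.3 (eBayes with a variance trend). Tests were two-sided, with Benjamini-Hochberg adjustment over all 17306 probe sets and a threshold of 0.05. "Rose" and "fell" mean past that test. The background level was the 95th percentile of the mean levels of 68 chemosensory receptor probe sets (3.07 log2). Median intensity per array was 35.6 to 37.1, and 62.7% to 63.6% of probe sets were above background. Precision is limited by the number of arrays. The model was tested on simulated data. Replicate numbers recur in all groups, but only 1 of 12 same-number pairs correlated above 0.1 in residual levels (-0.09 to 0.16). The main fit therefore held no block. Low correlation cannot exclude a weak pairing, so a replicate block was among the alternatives.

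The members and lists were chosen with earlier results of these data known. All 10 members and Vegfa are named. Other genes are drawn from the 4 largest called differences above background of each list and comparison. These are given in full for the pathway lists against GFP and in part for the marker lists and between the shRNA groups. Endothelial and blood cell markers that did not pass, P4ha1, P4hb, Pfkfb3 and Pfkfb4 are named besides. Listed genes without a matching probe set are not analysed here. Alternatives were quantile normalization, median centring, scaling to 24 poly-A spike-in probe sets (selected after their values had been seen), only probe sets above background, log2 of the intensity plus 16, no variance trend, a replicate block, only the 2 groups compared, and leaving out each array. The promoter motif search used 8 motifs.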

Additional observations from a re-analysis of the deposited data

Results flagged for a closer look

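Among 33 sets of 4 arrays (the 10 enzymes and Vegfa in each group), 5 had 1 array far from the other 3, where chance gives about 1 in 20. Loxl1 was 8.248 in VEGF-up replicate 4 and 8.374 in GFP replicate 1, beside nearest values of 8.298 and 8.312 in those groups. Plod1 was 6.531 in VEGF-down replicate 1, with the next array of that group at 6.342; this array lies nearer to the GFP level. Plod3 was 7.832 in VEGF-up replicate 2, with the next at 7.71. The other Loxl1 and Plod3 arrays of these groups were nearly equal, so departures of small size were flagged. Vegfa was 7.373 in GFP replicate 2, with the next at 7.151.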

How the results depend on the processing

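Differences of 10 enzymes were recomputed under 20 other settings in each comparison. Of 200 values for VEGF-down against GFP, 192 kept sign and side of the threshold, 6 passed only under the alternative, and with spike-in scaling the called Plod2 (-0.12) and the uncalled Loxl3 (-0.11) changed sign. For VEGF-up against GFP, 191 kept both, 7 uncalled values changed sign (Loxl4, Plod1, Plod3 and P4ha2 with spike-in scaling, the others without 1 array) and 2 passed only under the alternative. Between the shRNA groups 175 kept both, 6 uncalled values of Lox and Loxl1 changed sign and 19 values no longer passed. With spike-in scaling Ccs (-0.048), Atox1 (-0.075), Tgm2 (-0.047) and Furin (-0.048) also changed sign in VEGF-down against GFP, as the scaling lowers every VEGF-down value by the spike-in difference, and Vegfa in VEGF-up cells (0.21) no longer passed (adjusted p = 0.0639). Probe sets called in VEGF-down against GFP numbered 5358, 10708 with median centring and 14645 relative to spike-ins; in VEGF-up against VEGF-down 5288, against 11521 after median centring. Enzymes called in VEGF-up against GFP were 1 (of 2291 called probe sets), and 2 with spike-in scaling (of 2789). With the replicate block, enzymes called were 6 in VEGF-down against GFP (of 4876 called probe sets), 1 for VEGF-up against GFP (of 2085) and 7 between the shRNA groups (of 5084); of the named calls it ended those of Plod3 in the last (0.10, adjusted p = 0.101) and of Mfap2 in VEGF-up against GFP (-0.50, adjusted p = 0.0965); the Plod3 call was also ended by the fit to only the 2 groups (adjusted p = 0.109). Leaving out 1 array gave 4557 to 5429 called probe sets and 6 to 7 enzymes in VEGF-down against GFP, 1883 to 2455 and 1 to 2 for VEGF-up against GFP, and 4836 to 5441 and 6 to 8 between the shRNA groups. Loxl3 and Plod2 in VEGF-up against VEGF-down no longer passed with spike-in scaling (adjusted p 0.183 and 0.405). The causes were not tested. No depth exists for arrays; Loxl4 and P4ha3 are the dimmest of the 10, with GFP means 2.80 and 2.29 log2 units above background.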
